A study of Mus musculus with 9 samples.

Results

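Monocyte chemokines and macrophage genes were followed in the kidneys of ageing mice through 6 genes picked by name, namely Ccl2, Ccl7, Csf1, Cybb, Lyz2 and Mmp12. All 6 were found, among 489 distinct genes in the tables that the authors deposited. These tables are restricted to called genes, 389 for young against old and 113 for 3HB against old, and 13 genes stand in both. The 6 genes stood in the table for young against old and 0 of them in the table for 3HB against old. The test and threshold of these calls are not given in the sources used here.

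RNA was sequenced from 9 kidneys of ICR mice, an outbred strain, with 3 mice in each of 3 groups. The young group was 2 months old and untreated, the old group was 20 months old and untreated, and the 3HB group was 20 months old and had received 3HB-Na (the sodium salt of 3-hydroxybutyrate, a ketone body) in the water they drank, at 1 g/L and starting at 11 months. All animals were male, and the labels name no transgene or deletion in any group. The methods paragraph on sequencing names muscle, while the sample labels name kidney. Of 14 kidney tubule markers looked up, the tables held Keg1, which lay between 704.3 and 1637 in the 9 mice, and the proximal tubule receptor Lrp2, which lay between 68.6 and 154.5, so kidney transcripts were present in every library. The deposited values are normalized expression values, taken here as scaled for gene length and library size (TPM or FPKM, which of them is not stated). Total reads per mouse are not given, so the depth behind a value is unknown.

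As background, tissue macrophages are maintained by colony stimulating factor 1 (CSF1), and their numbers are fed from blood monocytes, which leave the marrow and enter inflamed tissue along gradients of the CC chemokines CCL2 and CCL7, both ligands of the receptor CCR2. In injured or ageing kidney, tubule and stromal cells as well as leukocytes can secrete CCL2 and CSF1. Once in the tissue, phagocytes make superoxide with the oxidase subunit encoded by Cybb, store and secrete lysozyme from Lyz2, and degrade elastin with the macrophage metalloelastase encoded by Mmp12. In whole kidney RNA, more macrophages and more RNA per macrophage cannot be told apart.

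The 6 genes lie on 5 chromosomes (GENCODE mouse release 21, build GRCm38, which the submitters' processing notes also name). Ccl2 (chr11:82035571-82037453) and Ccl7 (chr11:82045712-82047525) are neighbours on the plus strand with 8258 bases between them, and each has 3 exons. Of the 6 Ccl genes annotated within 300 kb there, only these 2 were in the tables, and Ccl11, Ccl12, Ccl8 and Ccl1 were not found. Csf1 lies at chr3:107741048-107760469, Cybb at chrX:9435252-9487771 and Lyz2 at chr10:117277331-117282321, all on the minus strand. Mmp12 (chr9:7344381-7369499, plus strand) stands among 10 Mmp genes within 500 kb, of which it alone was in the tables.

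Sequence copies limit some of these values. Lyz2 has a near copy, Lyz1, which lies 5475 bases away on the same strand, and their transcripts of 1316 and 1263 nt were 96.0% identical over 1262 aligned bases with a longest shared run of 118 bases. That run is shorter than a read of 150 bp, so no full-length read matches both annotated transcripts exactly. How the counting treated shorter alignments or mismatches is not stated, and how far Lyz1 reads enter the value of Lyz2 was not tested. Ccl2 and Ccl7 were 70.7% identical over 307 aligned bases with a longest shared run of 23 bases. The annotation places the antisense gene Gm17268 across Ccl2 and the antisense gene Mmp1b across the end of Mmp12. The annotated exons of Gm17268 share 0 of the 1138 exonic bases of Ccl2, and those of Mmp1b share 157 of the 7237 exonic bases of Mmp12 (2.17%). Whether the counting used strand is not stated, so reads from those 157 bases cannot be told apart.

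RefSeq promoter windows (GRCm38.p6) were at hand for 4 of the 6 genes, Csf1, Cybb, Lyz2 and Mmp12, and were cut to the 250 bases before the start that RefSeq lists. They were searched on both strands for TGANTCA (the AP-1 site), GAGGAA (the core bound by the myeloid factor PU.1), an NF-kB motif (GGG, then NN, then TTTCC) and TATAAA (the TATA box). The 3 windows below each hold a match, in capitals, and for Mmp12 only 1 of its 2 windows is shown. All 6 members were higher in every mouse of 20 months than in every young mouse, so this did not choose among them. The Csf1 window is chr3:107760470-107760719 on the minus strand. The Cybb window is chrX:9469325-9469574 on the minus strand, before the start of the longest coding transcript, which lies 18447 bases inside the gene as GENCODE annotates it. The Mmp12 window is chr9:7347124-7347373 on the plus strand, before the downstream of its 2 listed starts, which is also the start of its longest coding transcript.
Csf1: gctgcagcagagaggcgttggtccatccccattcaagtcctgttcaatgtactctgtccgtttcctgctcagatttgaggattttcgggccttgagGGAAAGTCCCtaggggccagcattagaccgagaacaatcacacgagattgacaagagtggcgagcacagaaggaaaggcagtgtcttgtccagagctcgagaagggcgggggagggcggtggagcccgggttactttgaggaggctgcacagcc
Cybb: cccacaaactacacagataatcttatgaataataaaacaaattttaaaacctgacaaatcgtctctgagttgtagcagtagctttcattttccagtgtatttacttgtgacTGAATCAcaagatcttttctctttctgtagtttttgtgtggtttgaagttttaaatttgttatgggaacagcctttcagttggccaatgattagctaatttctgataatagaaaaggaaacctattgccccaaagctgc
Mmp12: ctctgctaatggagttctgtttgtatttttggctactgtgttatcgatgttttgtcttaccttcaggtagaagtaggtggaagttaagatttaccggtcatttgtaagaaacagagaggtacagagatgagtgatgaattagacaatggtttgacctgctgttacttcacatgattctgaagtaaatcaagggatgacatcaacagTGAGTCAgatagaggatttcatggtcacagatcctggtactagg
In Csf1 the capitals mark an NF-kB match read on the opposite strand, at positions -154 to -145 from the start. In Cybb they mark an AP-1 match at -139 to -133, and in Mmp12 an AP-1 match at -44 to -38. The window of the upstream Mmp12 start had a PU.1 core match on the opposite strand at -86 to -81, and the Lyz2 window held none of the 4 motifs. Over 32851 windows of the same length, 6.75% held the AP-1 letters, 23.3% the PU.1 core, 1.41% the NF-kB letters and 12.4% the TATA letters. A match of letters describes the window only, and no binding was measured here.

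Ccl2 (ENSMUSG00000035385) encodes the main chemokine that draws CCR2-bearing monocytes. Its normalized value was 0.27, 0 and 0.29 in the young mice, 13.78, 3.35 and 13.83 in the old mice, and 5.62, 8.67 and 7.96 in the 3HB mice. Every mouse of 20 months lay above every young mouse, and old mouse 2 lay far below the other old mice and under all 3HB mice. The difference of mean log2(value + 1) between old and young mice was 3.06 (standard error 0.60), given without a test because the gene had been called on these same mice.

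Ccl7 (ENSMUSG00000035373) encodes a second CCR2 ligand, which also binds other CC receptors. It was listed at 0 in all young mice, at 1.60, 0.50 and 2.65 in the old mice, and at 0.11, 2.35 and 0.62 in the 3HB mice. The mice of 20 months thus spread from 0.11 to 2.65, and the 3HB mice spread over as wide a range as the old mice. No fold is given against a group listed at 0, and the difference of mean log2(value + 1) between old and young was 1.28 (standard error 0.37). Ccl2 stood above Ccl7 in each of the 6 mice of 20 months, by a ratio of normalized values between 3.69 (3HB mouse 2) and 51.1 (3HB mouse 1).

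Csf1 (ENSMUSG00000014599) encodes the growth factor on which most tissue macrophages depend. It was at 1.74, 1.29 and 2.05 in the young mice, 4.17, 3.50 and 4.88 in the old mice and 2.90, 3.34 and 4.19 in the 3HB mice. It varied least among the old mice, with a coefficient of variation of 16.5%, and the old mean of 4.18 ± 0.690 (SD, n = 3) was 2.47 times the young mean of 1.69 ± 0.382. The old and 3HB ranges overlapped through 3HB mouse 3.

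Cybb (ENSMUSG00000015340) encodes gp91phox, the catalytic subunit of the phagocyte NADPH oxidase. It was at 0.58, 0.29 and 0.41 in the young mice, 2.71, 1.24 and 1.08 in the old mice and 1.28, 1.34 and 1.04 in the 3HB mice. Old mouse 1 stood alone at the top, and the other 5 mice of 20 months lay between 1.04 and 1.34. The old mean was 1.68 ± 0.898 (SD, n = 3) against 0.427 ± 0.146 in young mice, a difference of mean log2(value + 1) of 0.86 (standard error 0.28).

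Lyz2 (ENSMUSG00000069516), the lysozyme of macrophages and granulocytes, had the highest level of the 6 genes on this length-normalized scale in each of the 9 mice. It was at 7.54, 8.12 and 8.69 in the young mice, 72.01, 22.92 and 29.95 in the old mice and 34.25, 42.87 and 37.33 in the 3HB mice. The young mice were close to each other, with a coefficient of variation of 7.08%, whereas old mouse 1 was at 3.14 times old mouse 2. The old mean was 41.6 ± 26.5 (SD, n = 3) and the 3HB mean 38.2 ± 4.37, against 8.12 ± 0.575 in young mice. Between old and young mice the difference of mean log2(value + 1) was 2.05 (standard error 0.49).

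Mmp12 (ENSMUSG00000049723) encodes the macrophage elastase. It was at 0.74, 0.26 and 0.74 in the young mice, 3.63, 1.99 and 2.89 in the old mice and 2.31, 1.19 and 0.89 in the 3HB mice. Of the 3HB mice, mice 2 and 3 lay under all old mice, and 3HB mouse 3 was only slightly above the highest young mice. The old mean of 2.84 ± 0.821 (SD, n = 3) was 4.89 times the young mean of 0.580 ± 0.277.

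**Figure D1:**
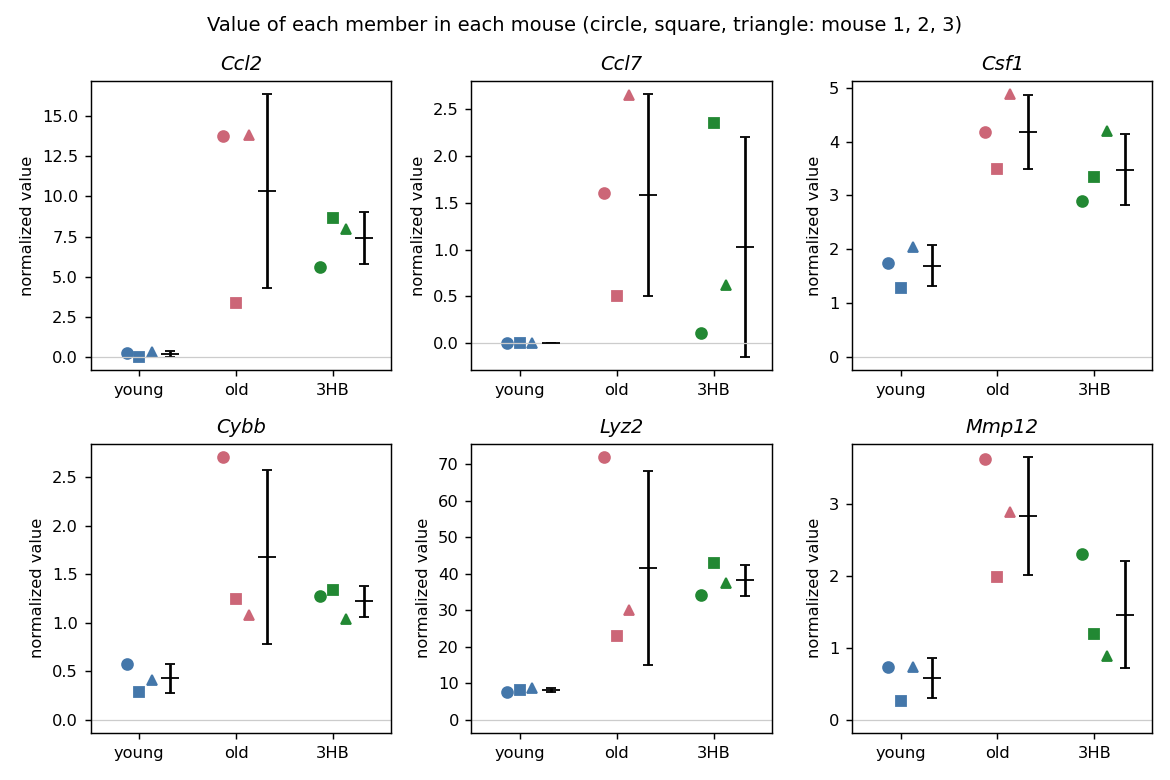
Normalized value (vertical axis, linear, TPM or FPKM not stated) of the 6 genes in each of 9 mice, by group (horizontal axis), with circles, squares and triangles for mice 1, 2 and 3 of a group and black bars for the mean ± SD of 3 mice. All old and 3HB mice sit above all young mice in each panel, while old and 3HB mice overlap in each panel, and old mouse 2 (square) is the lowest old mouse in 5 of the 6 genes.

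The first comparison asked how the kidney differs between 2 and 20 months. In 6 of 6 genes every old mouse was above every young mouse, and the median difference of mean log2(value + 1) was 1.28. Of the 389 genes in that table, 65.6% were higher in old mice without overlap, 27% were lower without overlap, and 92.5% were separated in either direction. Among the 271 genes whose average was higher in old mice the share above was 94.1%. The median difference over those 271 genes was 1.58. The tubule marker Keg1 was lower in the same old mice, at 819.8 ± 131.1 against 1334 ± 282.8 in young mice (mean ± SD, n = 3) without overlap, and its part in the result was not tested. Since the table holds only genes called on these mice, the 6 of 6 says nothing beyond the call itself, and no test is given.

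The 3HB mice were also 20 months old and were not a group of that call, so 3HB against young was tested. This compares other mice of 20 months with the same young mice, and age and 3HB differ together. Whether the 3HB libraries entered the fit behind the call is not stated. All 6 genes were higher in every 3HB mouse than in every young mouse, where 61.2% of the 389 genes showed this, 82.3% were separated from young mice in either direction, and of the 271 genes higher in old mice 87.5% were higher with 3HB than in young mice without overlap. Each two-sided exact permutation test gave p = 0.1, the smallest that 3 mice against 3 allow, so no gene could reach 0.05. The difference of mean log2(value + 1) was 2.82 for Ccl2 (standard error 0.20), 2.10 for Lyz2 (0.11), 0.86 for Ccl7 (0.47), 0.73 for Csf1 (0.17), 0.64 for Cybb (0.10) and 0.61 for Mmp12 (0.29). On the linear scale the 3HB mean was 4.70 times the young mean for Lyz2, 2.86 times for Cybb, 2.52 times for Mmp12 and 2.05 times for Csf1. Both comparisons share the young mice, whose low values helped to bring the genes into the table.

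The third comparison asked whether 3HB at the same age went with another level of these genes. High values in these old mice helped to bring the genes into the table, which by itself makes 3HB minus old lean to lower values, so the tests below are not independent of that choice. Old and 3HB mice overlapped in 6 of 6 genes, where 6.17% of the 389 genes were lower and 7.2% higher with 3HB without overlap, and of the 271 genes 8.49% were lower and 5.54% higher. On the scale of log2(value + 1), 5 of the 6 genes had a lower mean in 3HB than in old mice and Lyz2 had a slightly higher one, with a median difference of -0.23 over the 6 genes, 0.02 over the 271 genes higher in old mice, of which 48.7% had a lower mean with 3HB, and 0.05 over the 389. With the pseudocount of 1 the largest difference was that of Mmp12, whose log2(value + 1) was -0.66 apart (standard error 0.30, two-sided exact permutation test, p = 0.2) and whose old mean was 1.94 times the 3HB mean. With a pseudocount of 0.1 the differences of Mmp12 and Ccl7 were both -0.97. With the pseudocount of 1 the difference of Ccl7 was -0.41 (standard error 0.60, exact p = 0.5), and for Ccl2 it was -0.24 (standard error 0.61, exact p = 0.6). For Cybb the difference was -0.22 (standard error 0.27, exact p = 0.7), for Csf1 -0.21 (standard error 0.16, exact p = 0.3) and for Lyz2 0.04 (standard error 0.495, exact p = 1). The tubule marker Lrp2 was at 148.5 ± 5.77 in 3HB and 94.2 ± 9.65 in old mice without overlap (SD, n = 3). No test is given, because Lrp2 had been called for 3HB against old on these same mice. Its part in the values of the 6 genes was not tested. None of the members' differences was shown to exceed the spread between mice, and for Ccl2, Ccl7 and Lyz2 the standard errors allow sizeable differences in either direction.

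**Figure D2:**
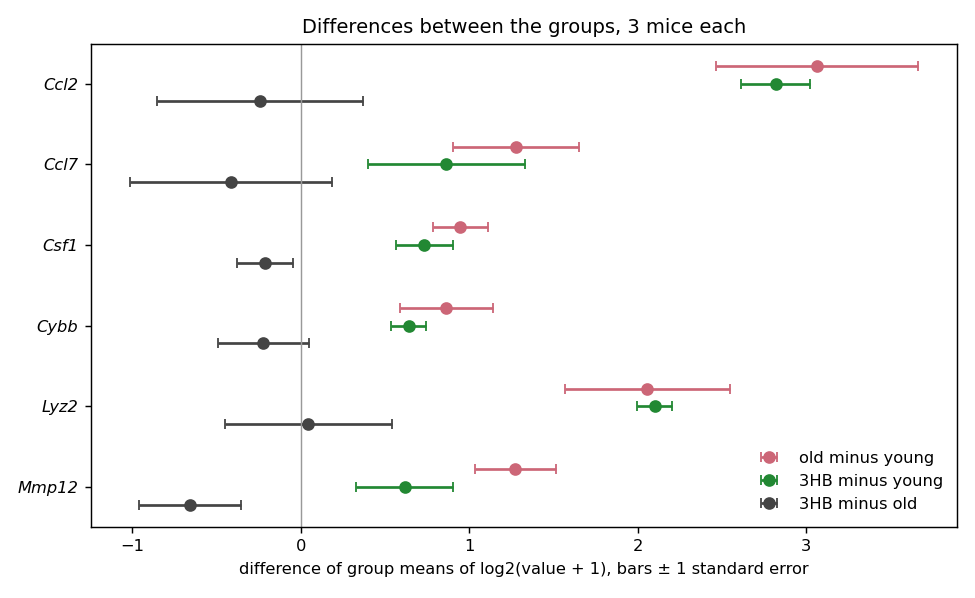
Difference of the group means of log2(value + 1) (horizontal axis) for each of the 6 genes (vertical axis), with dots for old minus young, 3HB minus young and 3HB minus old, and bars of 1 standard error from 3 mice per group. Both comparisons with young mice lie right of 0 for all genes, and 3HB minus old lies near 0 for Lyz2 (0.04) and lowest for Mmp12 (-0.66).

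The old mice themselves differed, and old mouse 2 bore on the comparison with 3HB. Among old mice it ranked last in 5 of the 6 genes, the exception being Cybb, where old mouse 3 was lowest. Over the 271 genes that were higher in old mice on average, old mouse 2 was the lowest in 39.9% and old mouse 3 also in 39.9%. Without old mouse 2, Ccl2 and Mmp12 no longer overlapped between old and 3HB mice, and the difference of mean log2(value + 1) became -0.83 for each (exact permutation test, p = 0.1 for Ccl2, the smallest possible for 2 mice against 3, and p = 0.2 for Mmp12). In the same setting 14.4% of the 389 genes were lower with 3HB without overlap. Without old mouse 1 the difference of Ccl2 was instead 0.05, and without old mouse 3 it was also 0.05, so its sign rested on which old mouse was left out. Without old mouse 1, Lyz2 was higher in all 3HB mice than in the old mice left, by 0.52 on the log2(value + 1) scale (exact p = 0.1), a separation that 13.4% of the 389 genes showed.

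The order of the mice of 20 months differed between the 6 genes. Old mouse 1 was highest of the old mice for Cybb, Lyz2 and Mmp12, and old mouse 3 was highest for Ccl2, Ccl7 and Csf1. Ccl2 barely separated these 2 mice, at 13.78 and 13.83. Among 3HB mice, mouse 2 was highest for Ccl2, Ccl7, Cybb and Lyz2, whereas mouse 1 was highest for Mmp12 and mouse 3 for Csf1. As a description over these 6 mice, with no test, Pearson's r of log2(value + 1) was 0.83 between Cybb and Lyz2, 0.75 between Ccl2 and Ccl7, 0.69 between Ccl2 and Csf1 and 0.66 between Ccl2 and Lyz2. It was 0.27 between Lyz2 and Mmp12, 0.14 between Csf1 and Lyz2 and 0.05 between Csf1 and Cybb, the lowest of the 15 pairs. These points share library and depth.

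**Figure D3:**
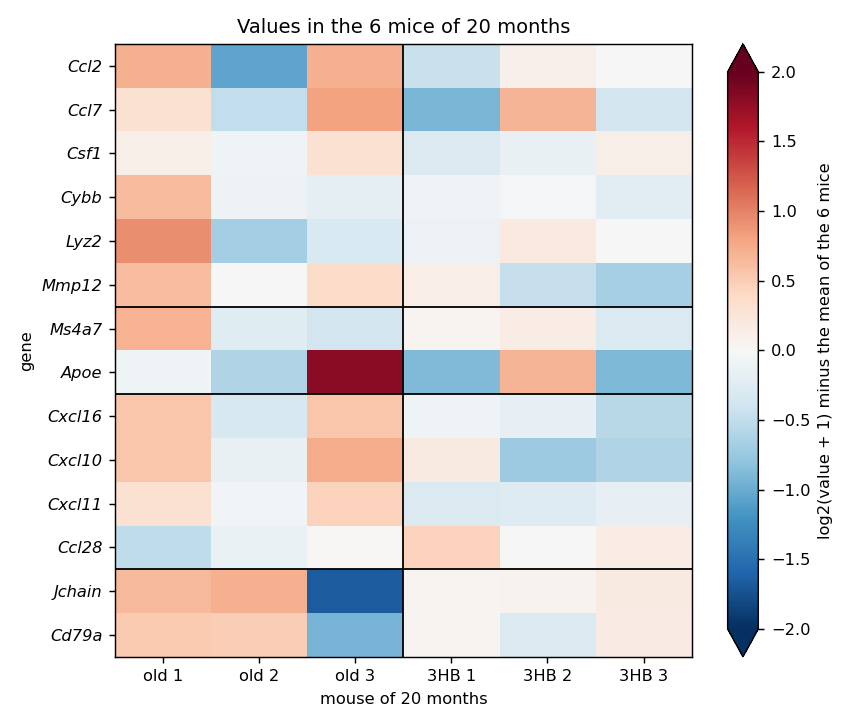
Colours, which saturate at a difference of 2, give log2(value + 1) minus the mean of the 6 mice of 20 months for each gene (rows) in each mouse (columns, 3 old left of the line and 3 3HB right of it), with the 6 members on top, then Ms4a7 and Apoe, 4 further chemokines and the B lineage genes Jchain and Cd79a. Old mouse 2 is blue for Ccl2 and Lyz2, old mouse 1 is red for Cybb, Lyz2 and Ms4a7, and old mouse 3 is blue for Jchain (60.4) and red for Ccl2 and Apoe.

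Of a list of 36 chemokine ligands, 6 were in the tables, namely the members Ccl2 and Ccl7 and 4 others, all of them in the table for age. The old mean exceeded the young mean in all 6, against 69.7% of the 389 genes. Cxcl16, the membrane-bound ligand of CXCR6, averaged 12.3 ± 5.40 in young mice, 32.3 ± 10.3 in old mice and 21.4 ± 3.64 with 3HB (SD over 3 mice each), with overlap between old and 3HB mice (exact permutation test, p = 0.3). Cxcl11, an interferon-inducible ligand of CXCR3, was at 0.66, 0.29 and 0.85 in old mice and at 0.10, 0.13 and 0.20 in 3HB mice, which did not overlap (exact permutation test, p = 0.1), where 6.17% of the 389 genes lay lower in this way. All these Cxcl11 values are below 1 at unknown depth. Cxcl10, of the same receptor, was the only listed ligand that was also in the table for 3HB against old. Its mean of 4.74 ± 1.70 for the old group compared with 2.39 ± 1.23 for the 3HB group, with overlap. This contrast is left untested for Cxcl10, because the gene had been called in it from the same animals. The young and old values of Cxcl10 also overlapped. Ccl28, a mucosal chemokine of epithelial cells, differed in direction from the others, with 62.1 ± 11.2 in old and 82.7 ± 13.4 in 3HB mice with overlap (exact permutation test, p = 0.2). Of 17 chemokine receptor genes looked up, CCR2's among them, 0 were found in the tables.

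Few other macrophage genes were in the tables. Of 31 genes for macrophage surface and identity, only Ms4a7, a membrane protein of mature macrophages, was found, and the defining genes Adgre1, Cd68, Itgam and Mrc1 were not, so the macrophage label of these genes could not be checked against them. Ms4a7 was at 0.27, 0.08 and 0.09 in the young mice, 2.54, 0.84 and 0.69 in the old mice and 1.27, 1.43 and 0.79 with 3HB. It was thus higher in every mouse of 20 months than in every young mouse, and its old and 3HB values overlapped (exact permutation test, p = 0.9). Of 8 genes of colony stimulating factors and their receptors only Csf1 was in the tables, of 6 subunit genes of the phagocyte oxidase only Cybb, and of 17 metalloproteinase, inhibitor and elastin genes only Mmp12. Of 14 lysosomal and secreted macrophage genes, Lyz2 and Apoe were present, and Apoe, a lipid carrier that macrophages also secrete, was at 372.7, 260.5 and 1395.6 in the old mice, with old mouse 3 far above the others. Of 10 monocyte and 13 neutrophil genes, 0 were found. Genes that were not found may have been expressed without being called, and they were not analysed here.

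Some further genes known from myeloid cells or leukocytes were picked after their values had been seen. Fgr, a Src family kinase of phagocytes, averaged 0.390 ± 0.0625 in young mice, 1.46 ± 0.335 in old mice and 1.23 ± 0.434 with 3HB (SD over 3 mice each). Cd44, the hyaluronan receptor, averaged 0.247 ± 0.0862 in young mice, 1.79 ± 0.785 in old mice and 1.53 ± 0.331 with 3HB. Sirpa, an inhibitory receptor of myeloid cells, was at 15.6 ± 5.82, 32.5 ± 12.1 and 32.2 ± 8.79, and here young and old mice overlapped. Old and 3HB mice overlapped in each of these genes.

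Markers of other leukocytes were looked up in the same tables. Of 16 B and plasma cell markers, 8 were in the table for age, and the old mean was the higher in all 8, against 69.7% of the 389 genes, with a summed value between 41.0 and 215.7 in young, 866.3 and 3156 in old and 2373 and 3464 in 3HB mice. Most of that sum was Igkc, the kappa light chain constant region, at 2648, 2743 and 771.4 in the old mice. In all 8 genes the old and 3HB mice overlapped (exact permutation tests, p from 0.3 to 1). Old mouse 3 was the lowest old mouse in 7 of these 8 genes and in 39.9% of the 271 genes higher in old mice. Of 17 T and NK cell markers only Cd8a was found, at 4.22, 0.47 and 5.37 in young and at 0.80, 0.51 and 0.33 in old mice, with overlap. Of 10 dendritic cell, 9 fibroblast and 10 podocyte and endothelial markers, 0 were found. The part of these cells in the values of the 6 genes was not tested.

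The genes most like each member were named by Pearson's r of log2(value + 1) over the 6 mice of 20 months, among 435 named genes whose highest group mean was at least 1, as a description with no p. For Ccl2 they were the complement gene C3 (r 0.93), Jmjd7 (0.88) and Sirpa (0.85). C3 ranked the 6 mice in the same order as Ccl2, at 29.54, 9.36 and 37.97 in old and 9.59, 21.69 and 13.05 in 3HB mice. For Ccl7 they were Havcr1, the tubular injury marker KIM-1 (r 0.97), Ddc (0.95) and the complement factor I gene Cfi (0.95), and for Csf1 they included Fgr (0.87) and Ubd (0.83). For Cybb the nearest gene was Ms4a7 (r 0.94), followed by Aldh1a2 (0.93) and the immunoglobulin gene Igkv6-25 (0.92). For Lyz2 they were B4galnt1 (r 0.95), Sult1c2 (0.93) and Ms4a7 (0.88), and for Mmp12 they were Gm11827 (0.97), the checkpoint gene Rad9b (0.94) and H2-M2 (0.94). With deviations from the group means over all 9 mice in place of the 6 mice, only 4 of the 18 choices stayed among the nearest 3. Ms4a7 remained the nearest to Cybb (r 0.98). Among choices that did not stay, r fell to 0.34 for Ccl7 with Havcr1, 0.20 for Ccl2 with Jmjd7 and 0.28 for Lyz2 with Sult1c2. It was 0.88 for Ccl2 with C3.

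**Figure D4:**
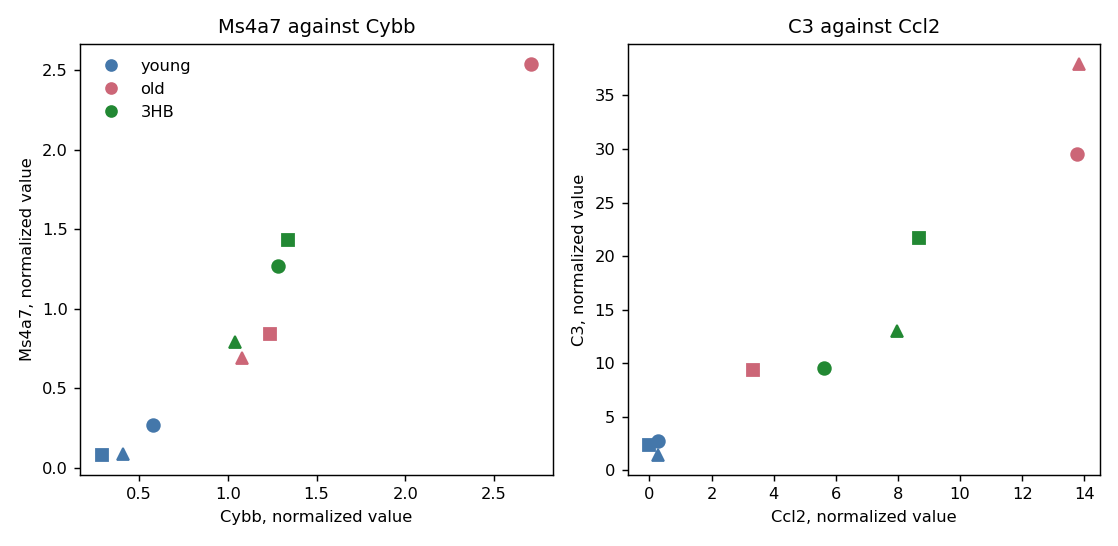
Normalized value of Ms4a7 against Cybb (left) and of C3 against Ccl2 (right), both axes linear, with 1 point per mouse, colours for the groups and circles, squares and triangles for mice 1, 2 and 3. The top right point on the left is old mouse 1 (2.71 and 2.54), and on the right old mice 1 and 3 lie above all others.

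In the deposited annotation, 4 of the 6 genes (Ccl2, Ccl7, Csf1 and Cybb) fall under the KEGG pathways described here. Of all 389 genes of the age table, 69.7% had a higher mean in old mice, which is the background for the pathway counts. Ccl2 and Ccl7 were the only 2 genes of the age table with the term CCR2 chemokine receptor binding. The KEGG chemokine signaling pathway held 7 genes of that table, 6 higher and 1 lower in old mice, namely Ccl2, Ccl7, Cxcl10, Cxcl16, Ccl28 and Fgr (higher) and the G protein subunit gene Gng4 (lower). Cytokine-cytokine receptor interaction held 9 genes, with Ccl2, Ccl7 and Csf1 among them, and all 9 were higher in old mice. TNF signaling held 5 genes, all higher, which were Ccl2, Csf1, Cxcl10, Vcam1 and Ifi47. Vcam1, an adhesion molecule that binds leukocytes and was picked after its values had been seen, averaged 1.19 ± 0.277 in young mice, 11.6 ± 3.55 in old mice and 7.30 ± 0.287 with 3HB (SD over 3 mice each). Its old and 3HB values did not overlap, although they came as close as 7.58 and 7.49. Of the 389 genes, 6.17% lay lower with 3HB in this way. No test is given for Vcam1, because its values had been seen before it was picked. The phagosome pathway held 15 genes, 13 higher and 2 lower in old mice, of which Cybb was the only member and the others were C3, Tap2 and MHC genes. No enrichment was tested.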

How the data were processed

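The authors sequenced paired reads of 150 bp from kidney RNA, and the submitters' processing notes name CASAVA, HISAT2, StringTie and GRCm38. The authors deposited 2 tables of normalized expression values with 2 decimals, and the file headers do not say whether these are TPM or FPKM. Each table holds only genes called by the authors, so no fit across all genes was possible. No unmapped value column was present. The members and all gene lists were chosen with earlier results of these data known. Genes were named as members, as listed genes found in a table or as the 3 genes most like each member, of which 1 is not reported here. Genes named from the annotation (among them Cd44, Sirpa, Fgr, Vcam1 and those of the KEGG pathways) were chosen after their values were seen.

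Differences are group means of log2(value + 1), with standard errors from both SDs. Exact permutation tests (two-sided) used the 20 ways to divide 6 mice into 3 and 3, all unadjusted. They are given for 12 differences of the members, and for other listed genes only in contrasts that had not called them. A fold on this scale understates the change of low values. P-values rank the observed difference among all splits of the mice and do not measure the spread within a group. The labels give no batch. Without depth no counting error is given. Positions came from GENCODE mouse release 21 and promoters from RefSeq GRCm38.p6. Alternatives were the pseudocount (0.1), medians, linear means, a minimum mean of 1, leaving out each mouse and pairing by number. Python 3.11.15, numpy 2.4.6, pandas 2.3.3, scipy 1.17.1, Biopython 1.88 and matplotlib 3.10.9 were used.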

Additional observations from a re-analysis of the deposited data

How the results depend on the processing

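All 6 genes stayed higher in 3HB than in young mice and in old than in young mice under the pseudocount, median, linear mean, pairing and leave-one-out settings. With a pseudocount of 0.1 the old minus young difference became 5.17 for Ccl2, 3.82 for Ccl7, 2.17 for Mmp12, 1.68 for Cybb and 1.27 for Csf1 on the log2 scale, because low young values weigh more with a small pseudocount, and 3HB minus young became 4.92 for Ccl2, 2.84 for Ccl7, 1.36 for Cybb and 1.20 for Mmp12. Medians took 3HB minus young to 0.33 for Mmp12. Leaving out 1 mouse took 3HB minus young to 0.42 for Ccl7 (without 3HB mouse 2) and to 0.38 for Mmp12 (without 3HB mouse 1, exact p = 0.3). For 3HB minus old the sign changed for 3 genes. Leaving out 1 mouse gave -0.83 to 0.05 for Ccl2 (lowest without old mouse 2, 0.049 without old mouse 1 and highest, 0.051, without old mouse 3), -0.38 to 0.038 for Cybb (highest without old mouse 1) and -0.29 to 0.52 for Lyz2 (lowest without old mouse 2, -0.10 without old mouse 3, -0.041 without 3HB mouse 2, highest without old mouse 1). The median of the mice gave 0.026 for Cybb, and linear means gave -0.12 for Lyz2. Medians also moved 3HB minus old to -0.72 for Ccl2, -0.68 for Ccl7 and 0.31 for Lyz2, linear means moved it to -0.43 for Ccl2, and a pseudocount of 0.1 gave -0.97 for Ccl7 and for Mmp12. Ccl7, Csf1 and Mmp12 stayed lower in 3HB mice under these settings, and leaving out 1 mouse gave -0.89 to -0.49 for Mmp12, -0.85 to -0.057 for Ccl7 (lowest without 3HB mouse 2, highest without 3HB mouse 1) and -0.32 to -0.12 for Csf1 (lowest without 3HB mouse 3, highest without old mouse 3). The count of genes without overlap between 3HB and old mice was 0 and ranged from 0 to 2 when a mouse was left out, with 2 lower without old mouse 2 (Ccl2 and Mmp12, where 14.4% of the 389 genes were lower), 1 higher without old mouse 1 (Lyz2, 13.4% higher), and 1 lower each without 3HB mouse 1 (Mmp12, 9.0%) and without 3HB mouse 3 (Csf1, 9.25%). A replicate block that took mice of the same number as pairs left the differences as they were, for example -0.66 for Mmp12 (exact sign-flip test, p = 0.25, the smallest for 3 pairs), and it changed no call. The numbers share no stated litter or day, and over 389 genes the deviations of same-numbered old and 3HB mice correlated at -0.03, -0.15 and -0.24, with 0 of 3 mice closest to their own number. Old and young mice correlated at 0.16, -0.10 and 0.14, with 2 of 3 closest, and 3HB and young mice at -0.02, -0.09 and -0.05, so the numbers were not taken as pairs. No p-value could fall under 0.05 in this design, so an unchanged call says nothing about stability. Depth is unknown, so the precision of low values such as those of Ccl7 could not be given.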
